A study of Mus musculus with 8 samples.

Results

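The 47 interferon-stimulated genes described here were taken as a fixed list of symbols, and 46 of them were matched among the 23284 gene symbols of the expression tables. All 46 reached 1 FPKM (fragments scaled by transcript length and by library size, a level per length) in at least 2 of the 8 libraries, so they were among the 11931 genes tested. Ifi27 was not analysed under its own symbol. The libraries were made from LSK cells, the Lineage- Sca-1+ c-Kit+ marrow cells among which the haematopoietic stem cells and early progenitors are found. All cells came from male C57BL/6 mice aged 12 to 13 weeks, fasted for more than 14 hours and injected intravenously over 7 days, with femur and tibia marrow taken on day 8. The 2 glucose libraries came from mice given 2 g/kg glucose, and the 2 glucose plus lipid libraries from mice given the same glucose with 6 ml/kg of Intralipid, a 20% lipid emulsion. The 4 PBS libraries came from mice injected with phosphate-buffered saline. About 10000 sorted cells went into each extract. All libraries are labelled biological replicates without saying whether each was 1 mouse or a pool, so p-values measure the spread between these libraries.

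By its title, the series concerns what blood sugar and triglyceride after a meal do in marrow stem cells. Each treatment was set against all 4 PBS libraries, because the labels speak of controls for each treatment without stating which PBS pair belongs to which. PBS replicates 1 and 2 carry the letters H and I, which the glucose plus lipid libraries also carry, and PBS replicates 3 and 4 carry J and K.

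Interferons are secreted proteins that signal through surface receptors and JAK kinases to STAT factors. Type I interferons bring STAT factors and IRF9 together on a promoter element called ISRE, while interferon gamma acts through an element called GAS. The induced genes encode proteins that block viral replication, sense foreign nucleic acid, attack vacuoles holding pathogens and present antigen. In the marrow, interferon is known to push quiescent stem cells into division, and stem cells hold a basal level of many of these genes. Sca-1 itself, the product of Ly6a on which the cells were sorted, is induced by interferon.

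The libraries differed in content before any group comparison. Each library had 11186 to 11771 genes at 1 FPKM or more, and estimated depths were 5.5 to 7.99 in units of 1000000 fragments. Summed FPKM of 11 LSK markers ranged from 1916 to 2064 in glucose, 1639 to 2081 in glucose plus lipid and 1643 to 1786 in PBS libraries. Glucose plus lipid replicate 1 carried transcripts of other cells: 10 neutrophil markers summed to 65917 FPKM there, and 289.9 FPKM in glucose plus lipid replicate 2, while glucose libraries held 246 to 421 FPKM and PBS libraries 322 to 608 FPKM. Monocyte and macrophage markers summed to 60.7 to 67.8 FPKM in glucose libraries, 620.5 and 61.9 FPKM in glucose plus lipid replicates 1 and 2, and 41.9 to 77.2 FPKM in PBS libraries. Plasmacytoid dendritic cell markers, from a cell type known as a strong interferon producer, summed to 135 to 160.3 FPKM in glucose libraries, 249.9 and 158 FPKM in glucose plus lipid replicates 1 and 2, and 131 to 163 FPKM in PBS libraries. Their defining marker Siglech had 0.333 and 0.249 FPKM in glucose libraries, 10.2 and 1.17 FPKM in glucose plus lipid libraries and 0 FPKM in each PBS library. Bst2, one of the interferon-stimulated genes described here, is also on the plasmacytoid dendritic cell list. It made up most of that list's sum in every library except glucose plus lipid replicate 1. Without Bst2, the rest of the sum was higher in every treated library than in every PBS library. Whether plasmacytoid dendritic cells contributed to the results was not tested.

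Other marker lists differed in how far they followed the groups. B and plasma cell markers (8 genes) summed to 81.6 and 75.1 FPKM in glucose, 202 and 85.03 FPKM in glucose plus lipid and 48.4, 65.002, 51.3 and 49.7 FPKM in PBS libraries, so that every treated library lay above every PBS library. Cd79b, at 33.2 to 72.9 FPKM, made up most of the sum in 7 of 8 libraries. Erythroid markers (6 genes) summed to 262 and 275 FPKM in glucose, 1251 and 1174 FPKM in glucose plus lipid and 267 to 556 FPKM in PBS libraries. Sums of 9 T and NK cell markers overlapped, at 383 and 463 FPKM in glucose, 429.5 and 329 FPKM in glucose plus lipid and 360 to 474 FPKM in PBS libraries. The number of these markers at 1 FPKM or more did not: it was 8 in glucose plus lipid replicate 1 and 1 to 3 in each other library. The part of these cells in the results was not tested.

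In glucose plus lipid LSK cells most interferon-stimulated genes had higher levels than in PBS cells, by modest amounts, and in glucose LSK cells by smaller ones. The median log2 fold change of the 46 genes was 0.31 for glucose against PBS and 0.50 for glucose plus lipid against PBS, while the median over all tested genes was -0.01 in both. In each of these comparisons 43 of the 46 genes had a fold change above 0, against 48.8% of all tested genes for glucose and 49.1% for glucose plus lipid. For all 4 treated libraries against PBS the median was 0.42 and 43 of 46 were above 0, against 48.7%. The genes share the same libraries and are not independent replicates. In these bulk samples a higher share of cells expressing a gene and more RNA per cell cannot be told apart.

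No single member passed an adjusted p of 0.05 in limma in any comparison. The lowest adjusted p among members was 0.797 for glucose against PBS, 0.157 (Irf1) for glucose plus lipid against PBS and 0.183 (Ifit3) for all 4 treated libraries against PBS. Over all tested genes, limma called 6 higher (0.0503%) and 1 lower (0.00838%) in glucose, and 6 higher (0.0503%) and 0 lower in glucose plus lipid. It called 22 genes higher (0.184%) and 0 lower in the treated libraries together. At an unadjusted p under 0.05 in limma, 10 members were higher in glucose, 21.7% against 3.11% of all tested genes. In glucose plus lipid 22 members were higher at that level, 47.8% against 6.45% of all tested genes, and for all treated libraries 21 members were, against 5.67%. Members lower than PBS at that level numbered 0 in glucose, against 3.04% of all tested genes, 0 in glucose plus lipid, against 3.67%, and 0 in all treated libraries, against 4.36%. These counts hold genes that fail the adjustment.

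Separation of the libraries gave the same order. In glucose plus lipid 26 of 46 members had both libraries above all 4 PBS libraries, 56.5% against 10.2% of all tested genes. In glucose 10 of 46 did, 21.7% against 8.47% of all tested genes. Irf1, Ifit3, Oasl1, Zbp1, Rtp4, Ddx58 and Gbp6 were the 7 members with every treated library above every PBS library, 15.2% of members against 3.55% of all tested genes. Members with every library below every PBS library numbered 0 for glucose, against 8.39% of all tested genes, 0 for glucose plus lipid, against 9.36%, and 0 for all treated libraries, against 2.84%. The glucose count rested on the lower of its libraries and on the highest control: it was 31 without glucose replicate 1, where 21.2% of all genes were above, and 22 without PBS replicate 4, where 12.4% were. For all treated libraries the count was 22 without glucose replicate 1, against 6.02% of all genes, 11 without PBS replicate 2, against 5.81%, and 19 without PBS replicate 4, against 5.94%. Leaving out a library can only keep or raise such counts.

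**Figure D1:**
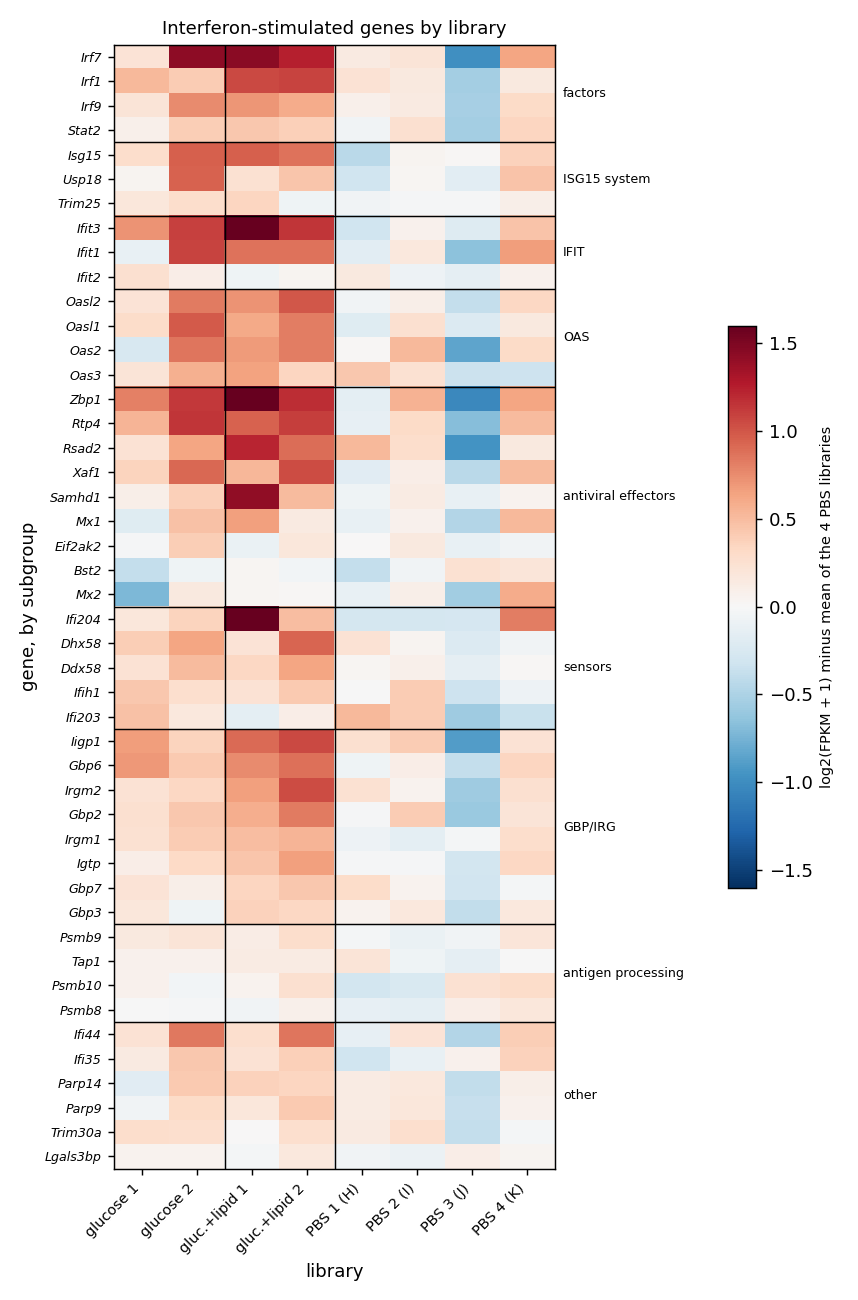
Each row is one of the 46 tested genes and each column a library; colour is log2(FPKM + 1) minus the mean of the 4 PBS libraries, and 3 cells past the colour limit of 1.6 take the darkest red. The glucose plus lipid columns are red across most rows except antigen processing, glucose replicate 1 is paler than glucose replicate 2, and PBS replicate 3 is blue for 33 genes that were lowest there of all 8 libraries.

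The controls differed among themselves in these genes. The median deviation of the 46 members from the PBS mean, on the log2(FPKM + 1) scale, was 0.21 and 0.40 in the glucose libraries and 0.44 and 0.50 in the glucose plus lipid libraries. In PBS replicates 1 to 4 it was -0.04, 0.11, -0.36 and 0.22. PBS replicate 4 therefore lay level with glucose replicate 1, and PBS replicate 3 lay apart at the bottom. PBS replicate 3 was the lowest control for 34 of 46 members, 73.9% against 27.1% of all tested genes. PBS replicate 4 exceeded PBS replicate 3 in 44 members, 95.7% against 46.5% of all genes, with a median difference of 0.52. Without PBS replicate 3 the median log2 fold change of the members was 0.19 for glucose and 0.42 for glucose plus lipid.

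Taking either PBS pair alone as controls moved the glucose median more than the glucose plus lipid median. Against PBS H and I the members' median was 0.22 for glucose and 0.48 for glucose plus lipid. Against PBS J and K it was 0.42 for glucose and 0.55 for glucose plus lipid. Between the control pairs themselves, H and I minus J and K, the members' median was 0.10, with 29 of 46 above 0, against 50.1% of all tested genes. The 4 PBS libraries' own medians had an SD of 0.25. That SD describes single libraries, while the medians against PBS compare group means.

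The factors that carry the interferon signal were higher in both glucose plus lipid libraries than in every PBS library for 4 of 4 genes, and in both glucose libraries for 1 of 4. Over all tested genes these shares were 10.2% and 8.47%. Irf7, the master regulator that amplifies type I interferon production, had 14.9 and 35.8 FPKM in glucose, 36.00 and 31.4 FPKM in glucose plus lipid and 14.1, 14.7, 5.90 and 20.2 FPKM in PBS libraries. Of the treated libraries, glucose replicate 1 alone overlapped the controls. The log2 fold change of Irf7 was 0.82 ± 0.44 (SE) for glucose against PBS and 1.34 ± 0.44 for glucose plus lipid against PBS (adjusted p = 0.837 and 0.373 in limma).

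Irf1, a factor induced by interferon gamma that activates GBP and antigen-processing genes, had 184 and 169 FPKM in glucose, 266 and 271 FPKM in glucose plus lipid and 149.5, 143, 87.1 and 143 FPKM in PBS libraries. All 4 treated libraries lay above the controls, the 2 glucose plus lipid libraries lay above both glucose libraries, and PBS replicate 3 stood below the other controls. Its log2 fold change was 0.46 ± 0.20 for glucose against PBS and 1.07 ± 0.20 for glucose plus lipid against PBS (adjusted p = 0.804 and 0.157 in limma). Without PBS replicate 3 the fold change for glucose plus lipid was 0.89 and Irf1 passed, with an adjusted p of 0.0188 in limma. For all treated libraries it was then 0.58, with an adjusted p of 0.0372. In the direct comparison Irf1 was 0.60 ± 0.24 above glucose in glucose plus lipid (unadjusted p = 0.031, adjusted p = 1 in limma).

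Irf9, the DNA-binding subunit of the ISRE-binding complex, had 43.9 and 64.8 FPKM in glucose, 62.3 and 57.5 FPKM in glucose plus lipid and 40.2, 41.9, 25.9 and 47.1 FPKM in PBS libraries. Its glucose plus lipid libraries lay above the controls and its glucose libraries overlapped them, with log2 fold changes of 0.48 ± 0.24 for glucose and 0.65 ± 0.24 for glucose plus lipid. Stat2, its partner, had 10.4 and 13.1 FPKM in glucose, 13.5 and 13.01 FPKM in glucose plus lipid and 9.38, 11.9, 6.36 and 12.7 FPKM in PBS libraries. These 2 glucose plus lipid values exceeded the highest control only narrowly.

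**Figure D2:**
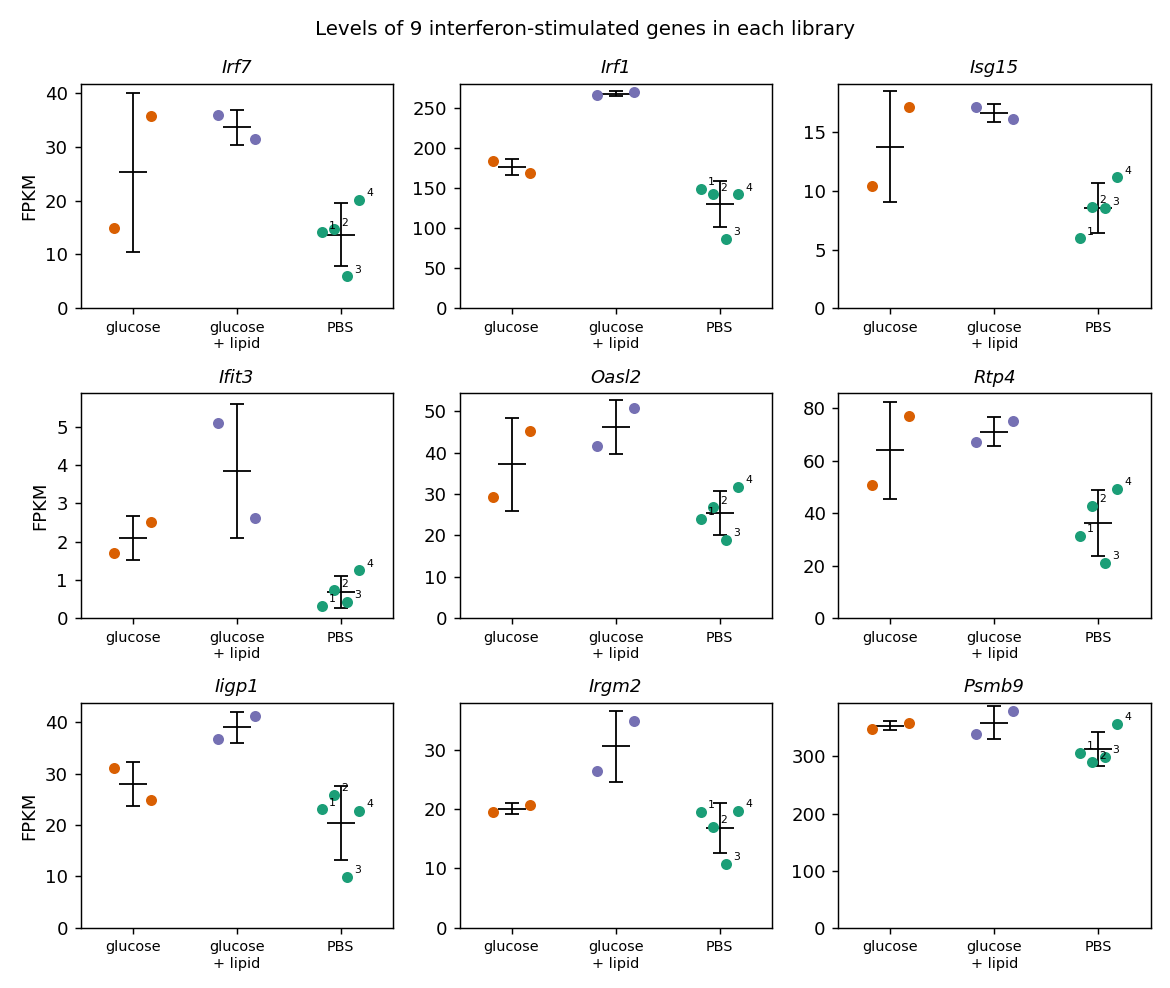
Points are FPKM of 9 genes in each library (linear axes from 0), bars are the mean with its SD (n = 2 glucose, n = 2 glucose plus lipid, n = 4 PBS), and small numbers name the PBS replicates. Both glucose plus lipid libraries sit above every PBS library for each gene except Psmb9, whose libraries overlap between groups.

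Promoter sequences of some members hold letters of the elements to which such factors bind. RefSeq promoter windows on GRCm38.p6, which span 250 bases before to 50 bases after a gene's start, were matched for 34 of the 46 members. The ISRE core searched was GAAANNGAAA, with N for any base, which reads TTTCNNTTTC on the other strand. It occurred in 18 of 34 members, 52.9%, against 3.99% of the 27025 genes with a window. The GAS pattern searched was TTCNNNGAA, which reads the same on both strands. GAS letters occurred in 10 of 34 members, 29.4%, against 9.55% of genes. ISRE letters were found in 6 of 6 GBP/IRG windows, 3 of 3 sensor windows, 2 of 3 IFIT windows and 0 of 4 antigen-processing windows. The other subgroups had them in 3 of 5 antiviral effector, 1 of 2 ISG15 system, 1 of 3 OAS, 1 of 4 factor and 1 of 4 remaining windows. Matches describe the sequence and are not measured binding. The Irf1 window held GAS letters and no ISRE core, and the stretch around them is shown since Irf1 had the lowest adjusted p of the members in glucose plus lipid (capitals mark the GAS letters, chr11:53769893-53769962, plus strand).
Irf1: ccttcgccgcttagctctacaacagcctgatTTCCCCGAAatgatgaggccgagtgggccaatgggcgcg

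The ISG15 system attaches a ubiquitin-like protein to other proteins. Isg15, the modifier, had 10.4 and 17.1 FPKM in glucose, 17.2 and 16.1 FPKM in glucose plus lipid and 5.95, 8.65, 8.52 and 11.2 FPKM in PBS libraries. Glucose replicate 1 lay within the control range, and the other treated libraries exceeded it. Its log2 fold change was 0.62 ± 0.25 for glucose and 0.91 ± 0.25 for glucose plus lipid against PBS (adjusted p = 0.804 and 0.293 in limma). Usp18, the protease that removes ISG15 and dampens the type I receptor, had 13.8 and 26.6 FPKM in glucose, 16.02 and 18.4 FPKM in glucose plus lipid and 10.5, 13.7, 11.7 and 18.6 FPKM in PBS libraries. Only glucose replicate 2 exceeded all controls, and the log2 fold changes were 0.49 ± 0.27 for glucose and 0.34 ± 0.27 for glucose plus lipid. Trim25, a ubiquitin ligase that activates RIG-I, had 13.1 and 14.2 FPKM in glucose, 14.9 and 10.9 FPKM in glucose plus lipid and 10.98, 11.3, 11.4 and 12.3 FPKM in PBS libraries. Its glucose libraries lay above the controls, glucose plus lipid replicate 2 lay below them, and the fold change in glucose plus lipid was 0.14 ± 0.15.

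IFIT proteins bind viral RNA that lacks host cap marks. Ifit3 had the highest fold change of the 46 members in glucose plus lipid, from low levels: 1.70 and 2.51 FPKM in glucose, 5.09 and 2.61 FPKM in glucose plus lipid and 0.317, 0.722, 0.420 and 1.25 FPKM in PBS libraries. All treated libraries lay above all controls, and glucose plus lipid replicate 1 stood highest. On the log2(FPKM + 1) scale, which understates changes of low genes, the fold change was 0.91 ± 0.31 for glucose and 1.52 ± 0.31 for glucose plus lipid (adjusted p = 0.797 and 0.179 in limma). Without glucose plus lipid replicate 2, which leaves 1 glucose plus lipid library, the one with other cells' transcripts, and takes the spread from the other groups, it was 1.89 with an adjusted p of 0.0360. In that fit 239 of all tested genes passed. For all treated libraries together Ifit3 was then 1.40 above PBS, with an adjusted p of 0.0377 in limma.

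Ifit1 had 3.80 and 9.97 FPKM in glucose, 8.52 and 8.54 FPKM in glucose plus lipid and 3.62, 4.85, 2.29 and 7.25 FPKM in PBS libraries. Both glucose plus lipid libraries exceeded the controls, whereas the glucose libraries lay at opposite ends: glucose replicate 2 was the highest of all 8 and glucose replicate 1 lay among the controls. The log2 fold change of Ifit1 was 0.48 ± 0.40 for glucose, and -0.12 without glucose replicate 2. In glucose plus lipid it was 0.87 ± 0.40. Ifit2 had 15.5 and 13.9 FPKM in glucose, 12.2 and 13.3 FPKM in glucose plus lipid and 14.4, 12.1, 11.5 and 13.6 FPKM in PBS libraries. Its groups overlapped, with fold changes of 0.18 ± 0.14 for glucose and -0.01 ± 0.14 for glucose plus lipid, unlike Ifit1 and Ifit3 in glucose plus lipid. Ifit3 has a close copy, Ifit3b, and the split of reads between them is uncertain. The promoters of Ifit3 and Ifit1, shown because both genes separated glucose plus lipid from PBS, each carry the ISRE core at 2 places (capitals; Ifit3 at chr19:34583360-34583429 and Ifit1 at chr19:34640764-34640833, plus strand), and that of Isg15 carries overlapping cores (chr4:156200851-156200920, minus strand). The Ifit2 window held no ISRE core.
Ifit3: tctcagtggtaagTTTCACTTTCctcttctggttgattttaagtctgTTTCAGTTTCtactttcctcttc
Ifit1: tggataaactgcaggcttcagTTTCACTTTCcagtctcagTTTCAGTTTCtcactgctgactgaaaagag
Isg15: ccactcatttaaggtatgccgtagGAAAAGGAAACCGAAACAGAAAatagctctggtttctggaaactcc

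The OAS family senses double-stranded RNA, and most of its enzymes make the oligoadenylates that activate RNase L. Oasl2, whose product carries ubiquitin-like domains, had 29.1 and 45.1 FPKM in glucose, 41.5 and 50.7 FPKM in glucose plus lipid and 24.1, 26.8, 18.9 and 31.7 FPKM in PBS libraries. Except for glucose replicate 1, the treated libraries exceeded the controls. The Oasl2 fold change was 0.52 ± 0.23 for glucose and 0.85 ± 0.23 for glucose plus lipid (adjusted p = 0.804 and 0.289 in limma). Oasl1, which is known to hold back Irf7 translation, had 5.07 and 8.74 FPKM in glucose, 6.53 and 7.72 FPKM in glucose plus lipid and 3.33, 4.87, 3.22 and 4.52 FPKM in PBS libraries. All 4 treated libraries lay above all 4 controls, with fold changes of 0.64 ± 0.24 for glucose and 0.72 ± 0.24 for glucose plus lipid.

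Oas2 had 4.28 and 10.4 FPKM in glucose, 9.13 and 10.2 FPKM in glucose plus lipid and 5.39, 8.01, 2.51 and 6.82 FPKM in PBS libraries. Glucose replicate 1 lay below 3 of the 4 controls, and the fold change was 0.30 ± 0.40 for glucose, or -0.26 without glucose replicate 2. In glucose plus lipid Oas2 differed from PBS by 0.75 ± 0.40. Oas3 had 12.9 and 16.9 FPKM in glucose, 17.8 and 14.2 FPKM in glucose plus lipid and 15.2, 13.2, 8.48 and 8.57 FPKM in PBS libraries, and its groups overlapped. In all, 3 of 4 OAS members had both glucose plus lipid libraries above every PBS library, against 10.2% of all tested genes. For glucose, 1 of 4 had both libraries there, against 8.47% of all tested genes. The 4 OAS members lie among related copies on chromosome 5, and the split of reads among such copies is uncertain.

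Among 9 antiviral effectors, 5 had both glucose plus lipid libraries above every PBS library, against 10.2% of all tested genes. Both glucose libraries were there in 2 of the 9, against 8.47% of all tested genes. Zbp1, a sensor of Z-form nucleic acid that starts necroptosis, had 10.5 and 13.4 FPKM in glucose, 20.05 and 13.9 FPKM in glucose plus lipid and 4.93, 8.70, 2.23 and 9.22 FPKM in PBS libraries. All treated libraries exceeded all controls, and PBS replicate 3 was the lowest. For Zbp1 the log2 fold change was 0.97 ± 0.43 for glucose and 1.42 ± 0.43 for glucose plus lipid (adjusted p = 0.804 and 0.345 in limma). Rtp4, a chaperone known to inhibit flaviviruses, had 50.8 and 77.2 FPKM in glucose, 67.2 and 75.1 FPKM in glucose plus lipid and 31.4, 42.8, 21.2 and 49.4 FPKM in PBS libraries. The treated and control ranges did not overlap, and the fold changes were 0.84 ± 0.31 for glucose and 1.02 ± 0.31 for glucose plus lipid (adjusted p = 0.797 and 0.346 in limma).

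Rsad2, which encodes viperin and makes a chain-terminating nucleotide, had 5.63 and 7.69 FPKM in glucose, 12.1 and 9.49 FPKM in glucose plus lipid and 7.09, 5.86, 1.89 and 5.26 FPKM in PBS libraries. Its glucose plus lipid libraries lay above all others, glucose libraries overlapped the controls, and the fold change was 0.43 ± 0.37 for glucose and 1.06 ± 0.37 for glucose plus lipid. Samhd1, a dNTP hydrolase abundant in myeloid cells, had 15.6 and 19.3 FPKM in glucose, 40.5 and 21.1 FPKM in glucose plus lipid and 13.8, 16.03, 13.3 and 15.1 FPKM in PBS libraries. Glucose plus lipid replicate 1 was well above every other library, and this is the library with 620.5 FPKM of monocyte and macrophage markers and 65917 FPKM of neutrophil markers. The part of those cells in the Samhd1 value was not tested. The Samhd1 fold change was 0.96 ± 0.23 for glucose plus lipid against PBS (adjusted p = 0.236 in limma) and 0.73 ± 0.27 against glucose (unadjusted p = 0.0233). Without glucose plus lipid replicate 2, when the group is the library with these markers alone and its spread is taken from the other groups, these were 1.42 and 1.18, with adjusted p of 0.00551 and 0.0325 in limma. In those comparisons 239 and 175 genes passed in all. The value was 0.83 for all treated libraries against PBS, with an adjusted p of 0.0215.

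Xaf1, which promotes cell death, had 13.8 and 20.9 FPKM in glucose, 15.7 and 22.9 FPKM in glucose plus lipid and 9.19, 11.4, 7.56 and 15.4 FPKM in PBS libraries. Glucose replicate 1 overlapped the controls and the other treated libraries did not, with fold changes of 0.64 ± 0.28 for glucose and 0.79 ± 0.28 for glucose plus lipid. Other effectors did not separate the groups. Bst2, which encodes tetherin, had 77.03 and 96.1 FPKM in glucose, 103 and 97.6 FPKM in glucose plus lipid and 76.97, 96.8, 119.5 and 115 FPKM in PBS libraries. PBS replicates 3 and 4 were the highest of the 8 libraries, and the fold change was -0.22 ± 0.18 for glucose and -0.01 ± 0.18 for glucose plus lipid. Mx1 and Mx2, genes of the dynamin-like GTPase family, stayed between 0.18 and 2.43 FPKM in all libraries, with overlapping groups. Eif2ak2, the double-stranded RNA kinase PKR, had 6.78 and 9.35 FPKM in glucose, 6.34 and 7.98 FPKM in glucose plus lipid and 6.95, 7.85, 6.29 and 6.63 FPKM in PBS libraries. Its fold changes were 0.18 ± 0.18 for glucose and 0.04 ± 0.18 for glucose plus lipid.

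Among the 5 sensors of viral RNA and DNA, 1 had both glucose plus lipid libraries above every PBS library and 2 had both glucose libraries there. The shares of all tested genes were 10.2% and 8.47%, and 1 of 5 is near the background for a list of this size. Ddx58, which encodes RIG-I, had 19.5 and 23.8 FPKM in glucose, 20.98 and 26.1 FPKM in glucose plus lipid and 16.9, 17.5, 14.8 and 16.8 FPKM in PBS libraries. All treated libraries exceeded all controls, and the controls were close together. Its log2 fold change was 0.37 ± 0.14 for glucose and 0.48 ± 0.14 for glucose plus lipid (adjusted p = 0.797 and 0.338 in limma). Dhx58, which encodes the regulator LGP2, had 23.2 and 27.6 FPKM in glucose, 20.5 and 34.1 FPKM in glucose plus lipid and 20.8, 17.99, 14.9 and 16.7 FPKM in PBS libraries. Its glucose libraries lay above the controls and glucose plus lipid replicate 1 lay among them, with fold changes of 0.51 ± 0.21 for glucose and 0.57 ± 0.21 for glucose plus lipid.

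Ifih1, the MDA5 gene, had 8.48 and 7.43 FPKM in glucose, 7.24 and 8.33 FPKM in glucose plus lipid and 6.00, 8.30, 4.56 and 5.65 FPKM in PBS libraries, with overlapping groups. Ifi203 had 53.6 and 43.3 FPKM in glucose, 34.2 and 41.6 FPKM in glucose plus lipid and 55.4, 51.3, 25.6 and 29.7 FPKM in PBS libraries. PBS J and K were the lowest of the 8 libraries, PBS H the highest, and the fold change was 0.32 ± 0.30 for glucose and -0.03 ± 0.30 for glucose plus lipid. Ifi204, a DNA sensor of the same cluster known from macrophages, was low in every library: 0.465 and 0.652 FPKM in glucose, 3.63 and 0.815 FPKM in glucose plus lipid and 0.0679, 0.0688, 0.0721 and 1.29 FPKM in PBS libraries. Its value in glucose plus lipid rested on replicate 1, the library with monocyte and neutrophil transcripts, and PBS replicate 4 also stood apart from the other controls. The part of those cells in the Ifi204 value was not tested. The fold change of Ifi204 was 0.27 ± 0.44 for glucose, -0.01 against PBS J and K alone, and 1.16 ± 0.44 for glucose plus lipid.

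**Figure D3:**
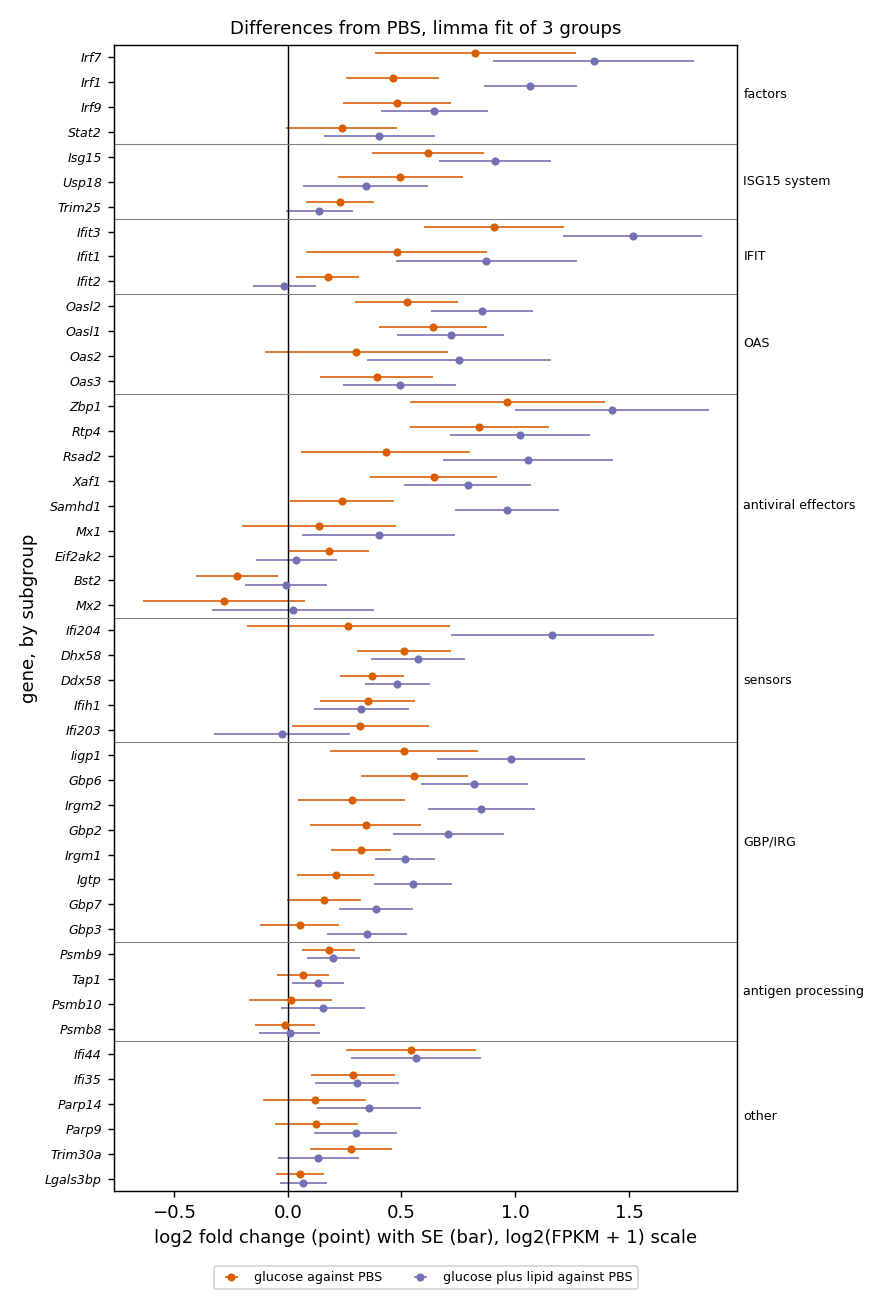
Points are log2 fold changes against the 4 PBS libraries on the log2(FPKM + 1) scale and bars are SEs from one limma fit, for glucose (orange) and glucose plus lipid (violet), with genes grouped by role. All 8 GBP/IRG genes lie above 0 in both comparisons and further out in glucose plus lipid, antigen-processing genes lie near 0, and no gene passed an adjusted p of 0.05.

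The guanylate-binding proteins and immunity-related GTPases (GBP/IRG), which coat and break vacuoles that hold pathogens, separated glucose plus lipid from the other groups in every member. In 8 of 8, both glucose plus lipid libraries lay above every PBS library and above both glucose libraries. Of all tested genes, 10.2% had both glucose plus lipid libraries above every PBS library. Both glucose libraries were above every PBS library in 1 of 8, Gbp6, against 8.47% of all tested genes, which for 8 genes is near the background. Of all tested genes, 17.1% had both glucose plus lipid libraries above both glucose libraries, and of all 46 members 16 did, or 34.8%. The subgroup median was 0.30 for glucose against PBS, 0.63 for glucose plus lipid against PBS and 0.32 for glucose plus lipid against glucose. With glucose plus lipid set against PBS H and I and glucose against PBS J and K, the difference between treatments was smaller. Its subgroup median was then 0.15, with 5 of 8 above 0, against 6354 of 11931 tested genes. Between the PBS pairs, H and I minus J and K, the subgroup median was 0.26, with 6 of 8 above 0, against 50.1% of all tested genes.

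Iigp1, a GTPase of the parasite vacuole, had 31.1 and 24.96 FPKM in glucose, 36.8 and 41.2 FPKM in glucose plus lipid and 23.1, 25.9, 9.92 and 22.7 FPKM in PBS libraries. The glucose plus lipid libraries were the highest, glucose replicate 2 lay within the control range, and PBS replicate 3 was the lowest. Its log2 fold change was 0.51 ± 0.33 for glucose and 0.98 ± 0.33 for glucose plus lipid (adjusted p = 0.858 and 0.373 in limma). Irgm2, a regulator of the other IRG proteins, had 19.5 and 20.7 FPKM in glucose, 26.4 and 34.8 FPKM in glucose plus lipid and 19.6, 17.1, 10.7 and 19.8 FPKM in PBS libraries. Glucose replicate 1 lay within the control range, replicate 2 just above it and the glucose plus lipid libraries further above, with fold changes of 0.28 ± 0.24 for glucose, 0.85 ± 0.24 for glucose plus lipid and 0.57 ± 0.27 between the treatments (unadjusted p = 0.066 in limma). Irgm1, whose loss in mice is known to impair stem cells under interferon, had 100.3 and 112 FPKM in glucose, 119 and 123 FPKM in glucose plus lipid and 79.6, 75.6, 82.3 and 102 FPKM in PBS libraries. Its fold change was 0.32 ± 0.13 for glucose and 0.52 ± 0.13 for glucose plus lipid (adjusted p = 0.804 and 0.281 in limma).

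Gbp6 was low in level: 3.34 and 2.58 FPKM in glucose, 3.54 and 3.94 FPKM in glucose plus lipid and 1.55, 1.89, 1.06 and 2.40 FPKM in PBS libraries. All treated libraries exceeded all controls, with fold changes of 0.56 ± 0.24 for glucose and 0.82 ± 0.24 for glucose plus lipid (adjusted p = 0.804 and 0.320 in limma). Gbp2 had 32.7 and 36.95 FPKM in glucose, 41.1 and 49.2 FPKM in glucose plus lipid and 26.8, 36.2, 17.7 and 31.6 FPKM in PBS libraries. Glucose replicate 1 lay within the control range and replicate 2 just above it, and the fold changes were 0.34 ± 0.24 for glucose and 0.71 ± 0.24 for glucose plus lipid. Igtp, also called Irgm3, had 45.6 and 53.02 FPKM in glucose, 57.97 and 67.5 FPKM in glucose plus lipid and 41.9, 41.7, 34.3 and 53.6 FPKM in PBS libraries, with fold changes of 0.21 ± 0.17 for glucose and 0.55 ± 0.17 for glucose plus lipid. Gbp3 and Gbp7 differed least of the 8, by 0.35 ± 0.17 and 0.39 ± 0.16 in glucose plus lipid.

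Promoter stretches of 4 of these genes are shown since all 8 genes of the subgroup separated glucose plus lipid from PBS, and the Rsad2 stretch is set beside them as an antiviral effector with 1 core. Capitals mark ISRE core letters and, in Irgm2 and Igtp, also the GAS letters just before them. The Irgm2 and Igtp stretches were identical at 68 of 70 positions. Both genes overlap on chromosome 11 in the GENCODE annotation, and the split of reads between near copies among GBP and IRG genes is uncertain. Positions on GRCm38.p6 are chr3:142620574-142620643 for Gbp2, chr11:58214877-58214946 for Irgm2 and chr11:58199486-58199555 for Igtp on the plus strand, and chr11:48871408-48871477 for Irgm1 and chr12:26456533-26456602 for Rsad2 on the minus strand.
Gbp2: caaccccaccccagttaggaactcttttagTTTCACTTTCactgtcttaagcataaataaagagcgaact
Irgm1: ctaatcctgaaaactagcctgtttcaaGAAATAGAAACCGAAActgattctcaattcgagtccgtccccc
Irgm2: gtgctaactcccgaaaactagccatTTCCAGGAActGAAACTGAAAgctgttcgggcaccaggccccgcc
Igtp: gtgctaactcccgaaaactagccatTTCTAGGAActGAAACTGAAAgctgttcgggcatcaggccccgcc
Rsad2: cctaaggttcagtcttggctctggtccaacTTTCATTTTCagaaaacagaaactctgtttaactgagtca

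Antigen-processing genes had the lowest median fold change of the subgroups in both treatments, and Psmb8 and Psmb9 were the members with the highest levels. Psmb8, an immunoproteasome subunit, had 637 and 632 FPKM in glucose, 613 and 676 FPKM in glucose plus lipid and 583, 572, 691 and 728 FPKM in PBS libraries. The groups overlapped, with fold changes of -0.01 ± 0.13 for glucose and 0.01 ± 0.13 for glucose plus lipid. Psmb9, its partner subunit, had 348 and 359 FPKM in glucose, 339 and 379 FPKM in glucose plus lipid and 306, 289, 299 and 358 FPKM in PBS libraries, with fold changes of 0.18 ± 0.12 for glucose and 0.20 ± 0.12 for glucose plus lipid. Psmb10 had 139 and 129.8 FPKM in glucose, 139 and 159 FPKM in glucose plus lipid and 108, 113, 158 and 163 FPKM in PBS libraries. PBS J and K lay above PBS H and I, so its fold change for glucose was 0.01 ± 0.18 against all controls and -0.26 against PBS J and K.

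Tap1, which pumps peptides into the endoplasmic reticulum, had 83.9 and 83.9 FPKM in glucose, 88.1 and 87.9 FPKM in glucose plus lipid and 92.6, 76.5, 72.6 and 80.02 FPKM in PBS libraries. It differed by 0.07 ± 0.11 in glucose, -0.0033 against PBS H and I alone, and by 0.13 ± 0.11 in glucose plus lipid. Both libraries lay above every PBS library in 0 of 4 antigen-processing genes for each treatment, against 8.47% of all tested genes in glucose and 10.2% in glucose plus lipid, which for 4 genes is near the background. The subgroup median was 0.04 for glucose and 0.145 for glucose plus lipid.

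The remaining 6 tested members were mixed. Ifi44, a gene of the antiviral response, had 12.01 and 18.9 FPKM in glucose, 12.3 and 19.1 FPKM in glucose plus lipid and 9.08, 11.8, 6.97 and 13.5 FPKM in PBS libraries. Glucose replicate 2 and glucose plus lipid replicate 2 exceeded the controls and the other treated libraries did not. Its fold changes were 0.54 ± 0.28 for glucose and 0.56 ± 0.28 for glucose plus lipid. Ifi35 had 59.8 and 73.02 FPKM in glucose, 63.7 and 70.4 FPKM in glucose plus lipid and 42.9, 49.7, 56.7 and 69.98 FPKM in PBS libraries, with overlapping groups. Parp14, an ADP-ribosyl transferase, had 4.48 and 7.30 FPKM in glucose, 7.02 and 6.90 FPKM in glucose plus lipid and 5.81, 5.97, 3.74 and 5.62 FPKM in PBS libraries. Its glucose plus lipid libraries lay above the controls, and its fold change for glucose was 0.12 ± 0.23, with glucose replicate 1 below 3 of the 4 controls. That value was -0.18 without glucose replicate 2, -0.01 without PBS replicate 3 and -0.03 against PBS H and I alone. Parp9 was also above every PBS library in glucose plus lipid, with 28.3 and 33.4 FPKM there, 23.8 and 31.0 FPKM in glucose and 27.2, 28.1, 18.9 and 26.03 FPKM in PBS libraries. Trim30a was above every PBS library in glucose, though narrowly, with 35.3 and 35.0 FPKM in glucose, 28.8 and 34.9 FPKM in glucose plus lipid and 32.0, 34.8, 21.8 and 28.2 FPKM in PBS libraries. Lgals3bp, at 164 to 197 FPKM, overlapped in both comparisons.

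Set directly against glucose, glucose plus lipid had 39 of 46 members above 0, with a median log2 difference of 0.19, against 50.6% of all tested genes above 0. Irf1 and Samhd1 were the 2 members higher at an unadjusted p under 0.05 in limma, 4.35% against 2.58% of all tested genes, and the adjusted p was 1 for every member. Besides the 16 members with both glucose plus lipid libraries above both glucose libraries, 3 had both below, 6.52% against 16.2% of all tested genes. Those 3 were Ifit2, Ifi203 and Trim30a. The order between the treatments rested on glucose replicate 1, the lower of its pair: without it 22 of 46 members were above 0 and the median was -0.01. Both glucose plus lipid libraries then lay above the remaining glucose library in 17 members, against 31.6% of all genes, and below it in 13, against 31.8%. Without glucose replicate 2, 35 members had both glucose plus lipid libraries above the remaining glucose library and 4 below, against 33.7% and 31.6% of all genes. Without glucose plus lipid replicate 1, the remaining library lay above both glucose libraries in 26 members and below in 4, against 34.0% and 33.4% of all genes. Without glucose plus lipid replicate 2, these numbers were 22 and 9, against 36% and 34.2%. Glucose replicate 2 exceeded replicate 1 in 33 of 46 members, 71.7% against 50.4% of all genes. When glucose plus lipid was set against PBS H and I, whose letters it shares, and glucose against PBS J and K, the median difference of the effects was 0.06, with 26 of 46 above 0. Both treatments share the PBS controls in the main comparisons, so their fold changes against PBS are not independent of each other.

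Upstream of the members, interferon transcripts were scarce. Ifnb1, Ifna1, Ifna2 and Ifna4 stayed at or below 0.38 FPKM in every library, Ifnl2 and Ifnl3 were at 0 in all 8, and Ifng reached 1.08 and 0.426 FPKM in glucose plus lipid libraries, 0 in glucose libraries and at most 0.15 FPKM in PBS libraries. None of these 7 ligand genes met the filter for testing. The receptors were well above it. Ifnar1 had 12.6 and 15.3 FPKM in glucose, 16.1 and 14.1 FPKM in glucose plus lipid and 14.1, 13.4, 13.2 and 14.5 FPKM in PBS libraries. Fold changes in glucose plus lipid were 0.11 ± 0.13 for Ifnar1, 0.17 ± 0.13 for Ifnar2, 0.30 ± 0.17 for Ifngr1 and 0.16 ± 0.20 for Ifngr2. The kinases Jak1 and Tyk2 differed by -0.05 ± 0.10 and 0.10 ± 0.23. Of 8 receptor and kinase genes, 0 were higher at an unadjusted p under 0.05 in limma in either treatment, against 3.11% of all tested genes in glucose and 6.45% in glucose plus lipid, shares at which a list of this size is near the background.

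Of the wider pathway list, 77 of 93 genes were tested, and 0 passed an adjusted p of 0.05 in limma. At an unadjusted p under 0.05, 9 were higher in glucose, 11.7% against 3.11% of all tested genes, and 1 was lower, 1.3% against 3.04%. In glucose plus lipid 21 were higher, 27.3% against 6.45%, and 0 lower, against 3.67%. In the treated libraries together 22 were higher, 28.6% against 5.67%. The list median was 0.15 for glucose and 0.22 for glucose plus lipid, lower than that of the 46 members. Cxcl10, a chemokine induced by interferon gamma, had 3.81 and 10.7 FPKM in glucose, 16.1 and 12.5 FPKM in glucose plus lipid and 2.22, 1.93, 1.35 and 3.85 FPKM in PBS libraries. Glucose replicate 1 lay just under PBS replicate 4, and the other treated libraries exceeded all controls. Its log2 fold change was 1.22 ± 0.38 for glucose and 2.24 ± 0.38 for glucose plus lipid (adjusted p = 0.765 and 0.110 in limma). In both comparisons this was the highest of the 77 tested genes of the list. Socs1, the feedback inhibitor of JAK kinases, had 6.24 and 10.4 FPKM in glucose, 8.56 and 10.3 FPKM in glucose plus lipid and 5.89, 4.26, 5.66 and 7.68 FPKM in PBS libraries, with a fold change of 0.42 ± 0.24 for glucose and 0.62 ± 0.24 for glucose plus lipid. Irf8 had 12.5 and 17.6 FPKM in glucose, 35.99 and 9.87 FPKM in glucose plus lipid and 14.2, 9.93, 11.7 and 16.3 FPKM in PBS libraries, where glucose plus lipid replicate 1 was highest and replicate 2 lowest. Irf2 differed by 0.31 ± 0.14 and Irf3 by -0.06 ± 0.11 in glucose plus lipid. Ly6a, the gene of the sorted antigen Sca-1, had 351 and 418 FPKM in glucose, 319 and 424 FPKM in glucose plus lipid and 295, 338, 299 and 345 FPKM in PBS libraries.

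**Figure D4:**
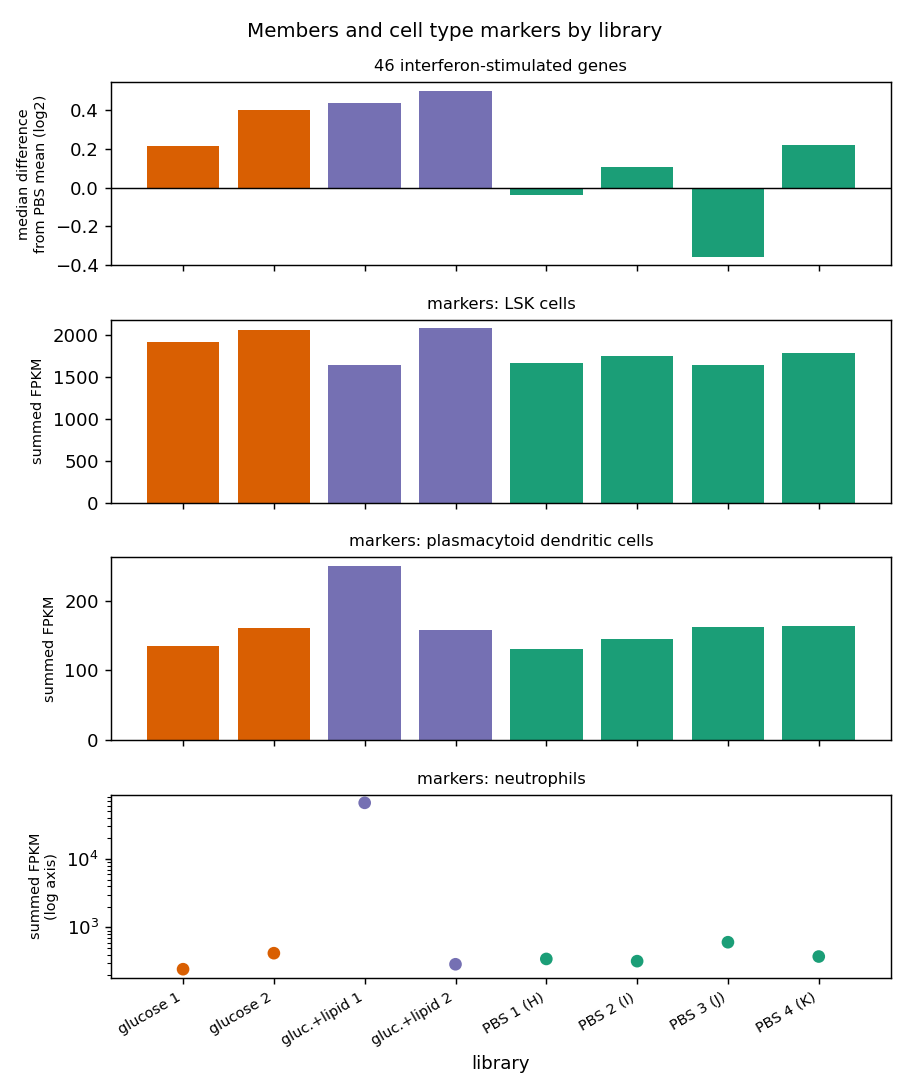
The top panel gives the median difference of the 46 genes from the PBS mean in each library, and the lower panels give summed FPKM of LSK, plasmacytoid dendritic cell and neutrophil markers (the last on a log axis). Glucose plus lipid replicate 1 alone carries the neutrophil signal, 65917 FPKM. Both glucose plus lipid libraries have similar medians for the interferon-stimulated genes, 0.44 and 0.50, and the part of other cells in them was not tested.

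Glucose plus lipid replicate 2 held neither the neutrophil nor the monocyte signal of replicate 1. Its erythroid markers summed to 1174 FPKM, against 267 to 556 FPKM in PBS libraries. B and plasma cell markers summed to 85.03 FPKM in replicate 2, against 48.4 to 65.002 FPKM in PBS libraries. The members' median was 0.50 in replicate 2 and 0.44 in replicate 1. The part of other cells in these medians was not tested. For GBP/IRG genes the medians were 0.53 in replicate 1 and 0.75 in replicate 2, and replicate 2 was the highest of all 8 libraries for 7 of 8. Without glucose plus lipid replicate 1, the members' median against PBS was 0.51. Of the 46 members, 12 were highest of all 8 libraries in replicate 1, Ifit3, Zbp1, Samhd1 and Ifi204 among them. In replicate 2, 16 members were highest.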

How the data were processed

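RNA of sorted LSK cells was sequenced in 8 libraries. Per the labels' protocols, the SMART-Seq HT kit served for cDNA and the Nextera XT kit for the libraries. TopHat2 2.0.13, Bowtie2 2.2.3, SAMtools 1.0, Cuffnorm 2.2.1 and the mm10 genome are named, per the submitters' processing notes. Each deposited file lists 1 FPKM value per gene symbol. That unit follows from the values and the tool's name, since the headers give only sample names. Which annotation and which library scaling Cuffnorm used is not stated in the labels or headers.

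Values were transformed to log2(FPKM + 1), so fold changes of low genes are understated. Genes that reached 1 FPKM in 2 or more libraries, 11931 in number, were fitted in limma 3.58.1 (R 4.3.3) with a mean-variance trend, as 1 fit of 3 groups with 5 residual and 3.85 prior degrees of freedom. Tests were 2-sided, with Benjamini-Hochberg adjusted p-values over all tested genes and a threshold of 0.05. Values against 1 PBS pair came from a fit of 4 groups with 4 residual and 3.73 prior degrees of freedom. A library counted as separated when it lay above every library of the other group. The procedure was tested on simulated data. Depth, estimated from the value of 1 fragment in 121 genes of the first library (quartiles 5.97 and 7.59, in units of 1000000 fragments), is approximate, and no counting intervals were drawn from it.

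The members, subgroups and lists were chosen with earlier results of these data known. By rule, each subgroup's 3 members with the largest difference between all treated and PBS libraries were named with values, with 13 pathway genes chosen by name, 1 of which is not reported here, and the other members were added after their values were seen so that all are accounted for. Replicate numbers did not pair the libraries: deviations of same-numbered libraries correlated at -0.062 to 0.0855. Alternatives were other pseudocounts, filters, scalings, a fit without a trend, each library left out, a replicate block and either PBS pair as controls. Recounts of separated members without a library or with 1 PBS pair were chosen after seeing the data. Gene positions came from GENCODE vM21 on GRCm38, and promoter sequences from RefSeq (GRCm38.p6). Other steps used Python 3.11.15 with pandas 2.3.3, numpy 2.4.6, scipy 1.17.1 and matplotlib 3.10.9.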

Additional observations from a re-analysis of the deposited data

Results flagged for a closer look

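In 3 of 46 members 1 PBS library stood so far from the other PBS libraries that the gap to the nearest of them exceeded Dixon's 95% critical value for 4 samples. Chance alone flags about 1 in 20 groups. Irf1 had 87.1 FPKM in PBS replicate 3, below the other controls, with a gap of 0.888 of the range. Parp14 had 3.74 FPKM in PBS replicate 3, also the lowest, with a gap of 0.840. Ifi204 had 1.29 FPKM in PBS replicate 4, above the other controls, with a gap of 0.997.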

How the results depend on the processing

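Of 996 recomputed values of named genes, 974 kept their direction and their side of the adjusted threshold, 19 changed sign, 0 lost a call and 3 gained a call. No call could be lost, since no member passed in the main comparisons. The gains for Ifit3 and Samhd1 came without glucose plus lipid replicate 2, which leaves 1 library in that group. These values do not cover all treated libraries against PBS, and cover Samhd1 only between the treatments. The cause of the sign changes was not tested. Under the libraries left out in turn, the glucose fold change ranged from -0.085 to 0.11 for Psmb10, -0.12 to 1.08 for Ifit1, -0.26 to 0.86 for Oas2 and -0.18 to 0.42 for Parp14. The glucose plus lipid fold change ranged from -0.066 to 0.35 for Trim25 and -0.072 to 0.043 for Ifit2. With PBS H and I only, and likewise with the replicate block, Tap1 was -0.0033 and Parp14 -0.031 in glucose. With PBS J and K only, Ifi204 was -0.0093 and Psmb10 -0.26 in glucose, and Ifit2 was 0.021 and Psmb10 -0.11 in glucose plus lipid.

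Leaving out each library in turn gave members' medians of 0.19 to 0.40 for glucose, 0.42 to 0.55 for glucose plus lipid, 0.33 to 0.51 for all treated libraries and -0.01 to 0.34 between the treatments. Members called higher then ranged from 0 to 2 for glucose plus lipid and for all treated libraries, and from 0 to 1 between the treatments, where members above 0 ranged from 22 to 41. Genes called over the whole table ranged from 2 to 11 for glucose, 3 to 239 for glucose plus lipid, 5 to 171 for all treated libraries and 0 to 175 between the treatments. The highest of these counts came without glucose plus lipid replicate 2, except for glucose, where it came without PBS replicate 3. Separated members ranged from 10 to 31 for glucose, 26 to 34 for glucose plus lipid, 7 to 22 for all treated libraries and 17 to 35 between the treatments.

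With no filter on low values limma called 12 genes for glucose, 9 for all treated libraries and 2 between the treatments. Without a trend it called 4 for glucose and 7 for all treated libraries. A pseudocount of 0.5 and a filter of 5 FPKM each gave 11 genes for glucose plus lipid. With PBS J and K only it called 12 for glucose, 28 for glucose plus lipid and 41 for all treated libraries, and with PBS H and I only 12 for all treated libraries. With glucose set against PBS J and K and glucose plus lipid against PBS H and I, it called 39 for all treated libraries and 2 for the difference between the treatments. Scaling sums without Mir and Snor genes called 1 gene between the treatments and moved the median of all genes there by -0.10. Separated members with PBS H and I only numbered 25 for glucose and 22 for all treated libraries (20.9% and 11.2% of all genes), and with PBS J and K only 21 and 18 (22.3% and 12.5%). The replicate block called 1 gene between the treatments and 0 members, with members' medians of 0.22 for glucose and 0.48 for glucose plus lipid. With the block, genes called over the whole table numbered 9 for glucose, 7 for glucose plus lipid and 15 for all treated libraries, and the call of no member changed. With 2 libraries per treatment and spread among controls of this size, differences of the observed sizes did not reach the adjusted threshold.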

Other observations

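A row carries the symbol Ifi27l1, which RefSeq lists as an older symbol of Ifi27, the mitochondrial interferon-induced protein on the list, and it was not counted among the members. Ifi27l1 had 98.1 and 156 FPKM in glucose, 132 and 157 FPKM in glucose plus lipid and 77.4, 109.7, 92.3 and 124 FPKM in PBS replicates 1 to 4. Both glucose plus lipid libraries lay above every PBS library, and glucose replicate 1 lay within the PBS range.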
